A study of Mus musculus with 20 samples.

Results

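The genes described here encode the hemidesmosome, the junction that fastens an epithelial cell to its basement membrane, and laminin-332, the extracellular ligand it grips. The members were 7 genes chosen by symbol, Col17a1, Itga6, Itgb4, Dst, Plec, Lama3 and Lamb3, out of 24411 genes in the deposited table, and all 7 were present and passed the filter on low counts. They were followed by bulk RNA-seq in RPE-choroid tissue (retinal pigment epithelium with the underlying vascular layer) of mice labelled C57BL/6 in 4 groups of 5 libraries. Per the study's methods the Stra6-/- mice were on a C57BL/6J background. WT mice and Stra6-/- mice, which lack the membrane receptor for retinol bound to its serum carrier, received after weaning either a vitamin A sufficient diet (VAS, 4 IU/g) or a vitamin A deficient diet (VAD, 0 IU/g) for 12 weeks. All animals had been raised on standard chow. The groups are called VAS WT, VAD WT, VAS Stra6-/- and VAD Stra6-/-, and VAS WT served as the control. By the study's account, each library pooled the tissue of both eyecups of a mouse. The WT mice came from a commercial breeder and the Stra6-/- mice from an in-house colony, so origin of the animals and genotype cannot be told apart.

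In a hemidesmosome, the integrin α6β4 (Itga6 and Itgb4) and the transmembrane collagen XVII (Col17a1, also called BP180) span the basal membrane. On the inside the plakins BP230 (Dst) and plectin (Plec) tie them to the keratin filaments, and on the outside they bind laminin-332, a trimer that holds the chains encoded by Lama3 and Lamb3. The structure is best known from the basal cells of stratified epithelia such as epidermis, conjunctiva and cornea, and its loss causes blistering. The RPE is a single-layered epithelium, and the cornea and most of the conjunctiva lie in front of the tissue that was dissected. In bulk tissue, fewer cells of a type and less RNA per cell cannot be told apart.

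The libraries held 13331903 to 21878614 reads in genes. The value used throughout is the normalized read count, which is the gene count divided by 1 size factor per library. The targeted gene Stra6 was checked first. VAS WT libraries had a mean of 2591 ± 149 (SD, n = 5), VAD WT 986 ± 415, VAS Stra6-/- 629 ± 49.8 and the group labelled VAD Stra6-/- 2163 ± 154. The last value goes against its label. The level in VAD WT does not match its label either. Replicates 1, 3 and 5 read 669 to 697, the level of VAS Stra6-/- (564 to 694), and replicates 2 and 4 read 1340 and 1529, below every VAS WT library (2414 to 2742). Both groups on the deficient diet are therefore called libraries labelled VAD WT and VAD Stra6-/- in what follows. Sex was read from Xist, expressed from the inactive X chromosome of females, and the Y-linked Ddx3y. VAS WT had Xist at 7.69 to 38.4 and Ddx3y at 981 to 1193, whereas VAS Stra6-/- had Xist at 15320 to 18052 and Ddx3y at 0 to 1.02, so sex and genotype cannot be told apart on the sufficient diet. All 5 libraries labelled VAD Stra6-/- held both, Xist at 3570 to 4280 and Ddx3y at 741 to 970. In VAD WT, replicates 2 and 4 stood apart from replicates 1, 3 and 5, with Xist at 10912 and 11767 against 174 to 234 and Ddx3y at 75.2 and 80.5 against 1041 to 1133. Whether libraries were exchanged or mixed was not tested, nor whether each held the tissue of a single mouse, as the study states. The n and the spreads given below are therefore those of libraries and may not be those of mice. Diet, genotype and sex in the comparisons below are as labelled or as read here. The main values that rest on VAD WT are also given without replicates 2 and 4. The labelled tissue was checked against its markers, and Rpe65, the retinoid isomerase of the RPE, was present in every group, with means from 2402 in VAD WT to 44337 in the libraries labelled VAD Stra6-/-. Krt12, the corneal keratin, was also present in all 4 groups, with a mean of 165008 in VAS WT.

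The promoters of the members that RefSeq covered (GRCm38.p6) are shown as a description, and their part in the members' values was not tested. RefSeq windows existed for 3 members, Col17a1, Dst and Lamb3, with 5 start sites. The stretches run 5′ to 3′ on the strand of the gene, lie upstream of the start site and leave out annotated exons. Capitals mark exact matches on either strand to 6 words, the AP-1 site TGANTCA, the TATA box TATAAA, the GC box GGGCGG, the E-box CACCTG and the retinoic acid receptor half-sites AGGTCA and GGGTCA. The Col17a1 stretch is chr19:47692095-47692292 on the minus strand. The upstream Dst start is served by chr1:34011345-34011594, the downstream start by chr1:34160010-34160259, and the Lamb3 stretch is chr1:193301744-193301992, all on the plus strand.
Col17a1: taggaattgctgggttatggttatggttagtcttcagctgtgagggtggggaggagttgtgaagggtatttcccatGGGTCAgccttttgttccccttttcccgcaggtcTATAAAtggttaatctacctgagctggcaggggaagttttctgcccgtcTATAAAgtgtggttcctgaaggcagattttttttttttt
Dst, upstream start: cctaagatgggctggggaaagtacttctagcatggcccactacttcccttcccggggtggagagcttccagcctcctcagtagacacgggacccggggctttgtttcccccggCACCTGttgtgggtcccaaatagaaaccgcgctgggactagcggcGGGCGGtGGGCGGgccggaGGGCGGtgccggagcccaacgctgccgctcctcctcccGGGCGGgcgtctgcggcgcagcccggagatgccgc
Dst, downstream start: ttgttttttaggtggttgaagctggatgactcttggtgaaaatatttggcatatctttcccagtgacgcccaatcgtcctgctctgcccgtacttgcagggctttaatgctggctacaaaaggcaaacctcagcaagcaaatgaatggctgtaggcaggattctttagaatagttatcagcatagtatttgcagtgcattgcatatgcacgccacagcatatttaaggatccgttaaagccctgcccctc
Lamb3: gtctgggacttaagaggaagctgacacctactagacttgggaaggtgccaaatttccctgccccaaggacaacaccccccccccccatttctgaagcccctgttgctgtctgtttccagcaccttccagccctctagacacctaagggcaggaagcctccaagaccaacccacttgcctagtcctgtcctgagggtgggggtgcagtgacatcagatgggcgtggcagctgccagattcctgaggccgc
Over the 250 bases before its start, Col17a1 held the TATA box word at 2 places and the GGGTCA half-site once. The upstream Dst start held 4 GC boxes and an E-box word, whereas the downstream Dst start held none of the 6 words. The first Lamb3 start held none of them either, and a second Lamb3 start carried the E-box word directly before it. Among 32851 RefSeq windows of the same length, the AP-1 word occurred in 6.75%, the TATA box in 12.4%, the GC box in 32.7%, the E-box in 17.2%, AGGTCA in 14.0% and GGGTCA in 11.6%. These matches describe letters only.

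Among the transmembrane components, Col17a1 (chr19:47646344-47692094, minus strand, GRCm38) covered the widest range of any member. Its normalized read count was 8947, 9165, 8528, 10024 and 7778 in VAS WT, 21401, 7710, 20749, 8240 and 21599 in the libraries labelled VAD WT, 22981, 23205, 24139, 23697 and 23495 in VAS Stra6-/-, and 242, 263, 185, 187 and 141 in the libraries labelled VAD Stra6-/- (replicates 1 to 5). VAS Stra6-/- lay above every VAS WT library, the libraries labelled VAD Stra6-/- lay below all others, and the libraries labelled VAD WT split into replicates 2 and 4 at the VAS WT level and replicates 1, 3 and 5 near VAS Stra6-/-. The α6 subunit gene Itga6 (chr2:71745616-71858416, plus strand) read 2389, 2209, 2392, 2401 and 2089 in VAS WT, 2669, 2165, 2719, 2180 and 2749 in the libraries labelled VAD WT, 6694, 6719, 6914, 6441 and 6588 in VAS Stra6-/-, and 575, 708, 726, 688 and 520 in the libraries labelled VAD Stra6-/-. Its WT groups overlapped, and the other groups lay on either side of them with wide gaps. The β4 subunit gene Itgb4 (chr11:115974709-116008412, plus strand), whose protein pairs only with α6, read 1876, 1865, 1717, 1915 and 1567 in VAS WT, 2083, 1615, 2500, 1687 and 2233 in the libraries labelled VAD WT, 3796, 3811, 3957, 3931 and 3842 in VAS Stra6-/-, and 200.5, 229, 253, 207 and 300.2 in the libraries labelled VAD Stra6-/-. The order of the groups was that of Itga6.

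The plakin genes varied least. Dst (chr1:33908225-34308661, plus strand, 20 transcripts in the GENCODE vM21 annotation) encodes BP230 in epithelia and longer isoforms in nerve and muscle, and the table holds 1 value for it. It read 4442, 4122, 4048, 4613 and 3959 in VAS WT, 6198, 4424, 5853, 4889 and 5827 in the libraries labelled VAD WT, 6566, 6572, 7041, 6611 and 6605 in VAS Stra6-/-, and 1593, 1864, 1862, 1898 and 1690 in the libraries labelled VAD Stra6-/-. The last group was below all other libraries but kept a larger share of the VAS WT level than any other member. Plec (chr15:76170974-76232574, minus strand, 22 transcripts in that annotation and 1 value) encodes plectin, which also links intermediate filaments to other junctions and to muscle discs. It read 5829, 5772, 5413, 5632 and 4924 in VAS WT, 5798, 5390, 6227, 5728 and 5393 in the libraries labelled VAD WT, 12155, 11947, 12466, 11608 and 10678 in VAS Stra6-/-, and 1509, 1503, 1526, 1577 and 1392 in the libraries labelled VAD Stra6-/-. Both WT groups shared 1 range, and VAD WT replicates 2 and 4 did not stand apart for this gene.

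The laminin chain genes had the lowest values per kilobase of the longest transcript. Lama3 (chr18:12333819-12583013, plus strand) encodes the α3 chain, which carries the integrin-binding end of the trimer. It read 1066, 1083, 891, 1307 and 918 in VAS WT, 1983, 1087, 1988, 1213 and 2113 in the libraries labelled VAD WT, 2460, 2319, 2854, 2467 and 2383 in VAS Stra6-/-, and 72.5, 135, 103, 171 and 106.5 in the libraries labelled VAD Stra6-/-. The pattern, including the split of the libraries labelled VAD WT, resembled that of Col17a1 at a lower level. Lamb3 (chr1:193207699-193343878, plus strand) encodes the β3 chain, found in laminin-332 and few other laminins. It read 543, 697, 536, 530 and 605 in VAS WT, 736, 479, 668, 465 and 736 in the libraries labelled VAD WT, 1181, 1139, 1213, 1221 and 1223 in VAS Stra6-/-, and 46.4, 45.1, 55.3, 83.4 and 56.6 in the libraries labelled VAD Stra6-/-. In the GENCODE vM21 annotation, Lamb3 is overlapped by Hsd11b1 and G0s2 (opposite strand) and Plec by Parp10 (same strand). This leaves the values uncertain to the extent that reads were shared. Whether the counting used the same gene spans is not known.

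**Figure D1:**
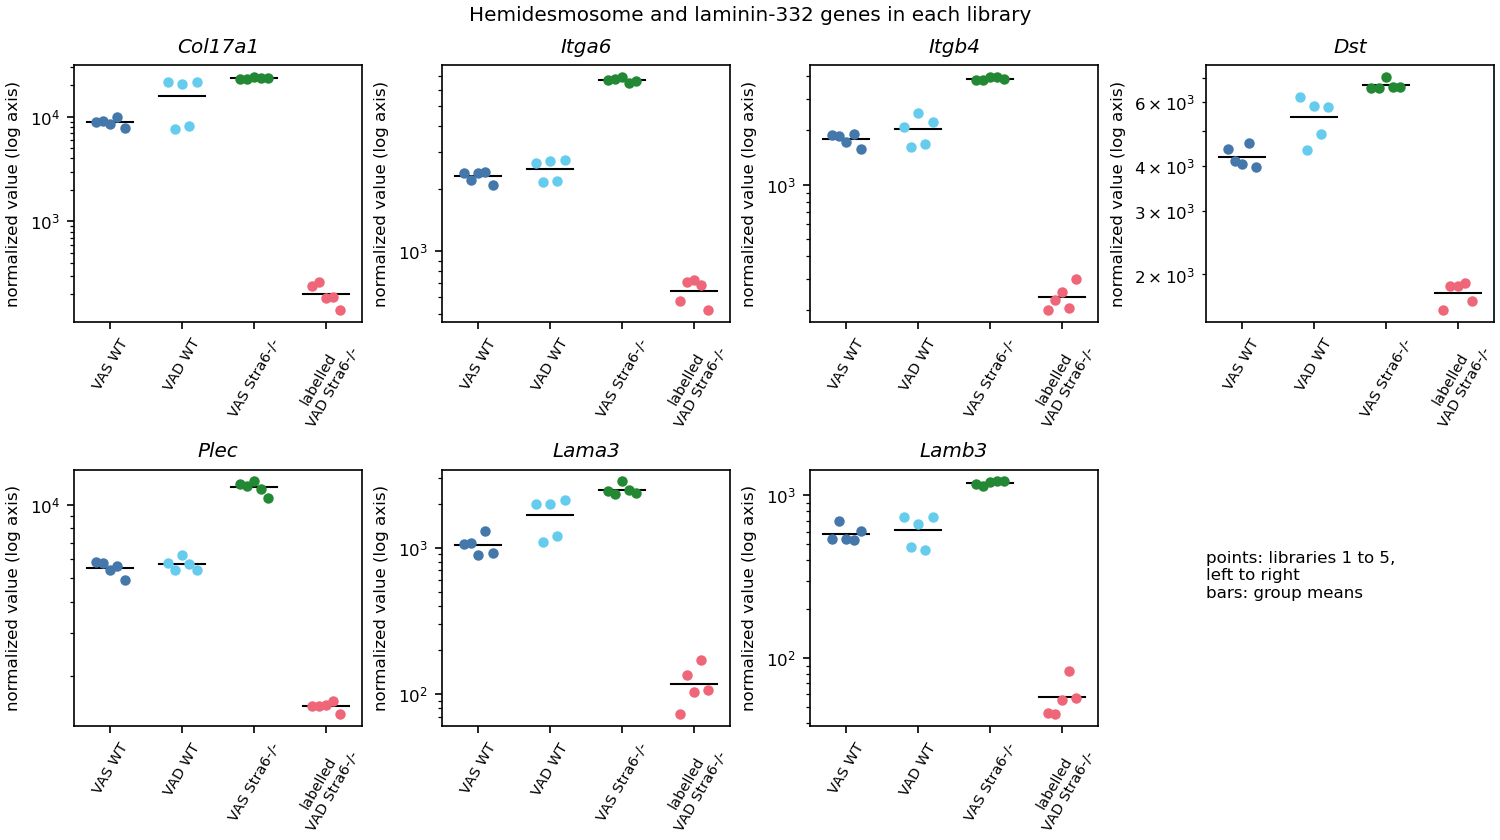
Normalized read count of the 7 genes (log axis) in the 5 libraries of each group, 1 panel per gene, with group means as bars. In every panel VAS Stra6-/- is the highest group by mean and the libraries labelled VAD Stra6-/- the lowest, from 23503 to 204 for Col17a1 and from 6679 to 1781 for Dst, and VAD WT replicates 2 and 4 sit below replicates 1, 3 and 5 for each gene except Plec.

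Loss of Stra6 on the sufficient diet was addressed by setting VAS Stra6-/- against VAS WT, groups that differ in sex as well. All 7 genes rose, by 1.58-fold for Dst to 2.91-fold for Itga6, so that the integrin, the collagen, both plakins and both laminin chains were higher in the mutant tissue. The groups did not overlap for any of them. By limma on log2(normalized read count + 1), the log2 fold change was 1.41 ± 0.24 (SE, adjusted p = 0.000178) for Col17a1, 1.54 ± 0.09 (adjusted p = 1.82e-10) for Itga6 and 1.12 ± 0.11 (adjusted p = 3.25e-07) for Itgb4. The plakins differed from each other, with 1.09 ± 0.06 (adjusted p = 1.82e-10) for Plec and 0.66 ± 0.08 (adjusted p = 4.52e-06) for Dst. Lama3 changed by 1.25 ± 0.20 (adjusted p = 6.57e-05) and Lamb3 by 1.04 ± 0.16 (adjusted p = 3.29e-05). As background, 15.9% of the 18807 genes tested were called higher in this comparison, and 19.3% had non-overlapping groups with the mutant higher. The median over the 7 genes was 1.12, and that over all genes tested was 0.02. No member passed the log2 fold change of 2 that the study required between genotypes, a size that 0.76% of all genes reached upward.

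Markers of surface epithelium moved in the same comparison. Of 14 genes on that list (Krt12, Krt5, Krt14, Trp63, Epcam and others) 4 rose and 3 fell, against 15.9% and 10.8% of all genes. Those that fell were keratins. The mean went from 150139 to 107625 for Krt15, from 43125 to 31306 for Krt13 and from 41283 to 21467 for Krt4. The median log2 fold change over the 14 genes was 0.51. The fit shares its spread over all 4 groups, and without VAD WT replicates 2 and 4, 10 rose and 3 fell at the same median. Of all 18807 genes, 4225 rose and 3299 fell in that fit. The summed value of the markers went from 734750 to 871394 in VAS WT to 982037 to 1020535 in VAS Stra6-/-. Within each library, the members' log2 value was also set against the mean log2 value of these markers, which includes the 3 that fell. On that scale the step from VAS WT to VAS Stra6-/- was 1.23 for Itga6, 1.10 for Col17a1, 0.95 for Lama3, 0.81 for Itgb4, 0.79 for Plec, 0.74 for Lamb3 and 0.35 for Dst. The markers were uneven, with the mean of Sfn going from 12589 to 26979 and that of Trp63 from 1656 to 2970. The part of the epithelium in the members' rise was not tested. Skeletal muscle markers rose too, 8 of 10 with a median of 1.30 (10 of 10 without VAD WT replicates 2 and 4). Their part in the values of Plec and Dst, which muscle also expresses, was not tested.

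The deficient diet in WT mice was addressed by the libraries labelled VAD WT against VAS WT, with the limit that Stra6 in 3 of the 5 VAD WT libraries was at the level of VAS Stra6-/-. The differences were smaller and less even. Of the 7 genes only Dst passed the test, rising 1.28-fold (log2 fold change 0.35 ± 0.08, limma adjusted p = 0.00906), and its groups overlapped. Called higher in this comparison were 3.29% of all genes. Col17a1 differed by 0.70 ± 0.24 (adjusted p = 0.0856) and Lama3 by 0.63 ± 0.20 (adjusted p = 0.0523), with 95% intervals of 0.19 to 1.21 and 0.22 to 1.04 before adjustment. For Itga6 the difference was 0.11 (adjusted p = 0.513), for Itgb4 0.16 (adjusted p = 0.447), for Plec 0.05 (adjusted p = 0.710) and for Lamb3 0.06 (adjusted p = 0.869). The 95% intervals before adjustment were −0.08 to 0.19 for Plec and −0.26 to 0.39 for Lamb3. They take the libraries labelled VAD WT as 1 group although these split, and without replicates 2 and 4 Lamb3 was at 0.30 ± 0.14. The comparison shares its VAS WT libraries with the previous one.

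These values rested on VAD WT replicates 2 and 4. Without them, 5 of the 7 genes were higher in the libraries labelled VAD WT by limma, against 17.6% of all genes. Col17a1 then rose by 1.26 ± 0.13 (adjusted p = 1.29e-07), Lama3 by 0.96 ± 0.18 (adjusted p = 0.000222), Dst by 0.49 ± 0.06 (adjusted p = 1.19e-06), Itgb4 by 0.35 ± 0.10 (adjusted p = 0.00935) and Itga6 by 0.24 ± 0.08 (adjusted p = 0.0262). Plec, at 0.07 ± 0.06 (adjusted p = 0.369), and Lamb3, at 0.30 ± 0.14 (adjusted p = 0.114), did not pass. Without either library alone, Col17a1, Dst and Lama3 passed. Fitted on the WT groups alone, Dst no longer did (adjusted p = 0.103). The split ran along with the epithelium markers, whose summed value was 451682 to 457444 in replicates 2 and 4 and 1232220 to 1267555 in replicates 1, 3 and 5, and with the fibroblast markers, at 152854 to 156750 against 48352 to 50461, the photoreceptor markers, at 303632 to 306280 against 114599 to 117994, and the skeletal muscle markers, at 14060 to 15087 against 4285 to 4427. RPE markers were lower in the libraries labelled VAD WT as a whole, with a sum of 45464 to 89388 against 141172 to 158033 in VAS WT. Of these 12 markers 10 fell (median log2 fold change −0.98), and 11 without replicates 2 and 4 (median −1.46). Skeletal muscle markers fell in 5 of 10, and in 10 of 10 without the 2 libraries. The share of all genes called lower was 5.5%, and 20.3% without the 2 libraries. The part of these differences in the values of the members was not tested.

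The deficient diet in the mutant was addressed by the libraries labelled VAD Stra6-/- against VAS Stra6-/-. All 7 genes fell, and no library of one group reached the range of the other. Col17a1 dropped most, 118-fold (log2 fold change −6.88 ± 0.24, limma adjusted p = 1.21e-15), and Dst least, 3.76-fold (−1.91 ± 0.08, adjusted p = 3.32e-14). The laminin chains fell alike, Lama3 21.8-fold (−4.45 ± 0.20, adjusted p = 5.15e-14) and Lamb3 21.0-fold (−4.39 ± 0.16, adjusted p = 1.13e-15). Itgb4 fell 16.4-fold (−4.03 ± 0.11, adjusted p = 3.59e-17), Itga6 10.4-fold (−3.38 ± 0.09, adjusted p = 1.78e-17) and Plec 7.83-fold (−2.97 ± 0.06, adjusted p = 5.47e-19). A pathway list that the study drew from genes it called lower in this comparison holds Itga6, Itgb4, Plec, Lama3 and Lamb3, so the count is not independent evidence of their direction. Of all genes, 28.8% were called lower and 26.8% had non-overlapping groups in that direction. Beyond a log2 fold change of 2, which all members but Dst passed, the share of all genes was 7.4%. The median was −4.03 over the members and −0.07 over all genes tested.

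Against the libraries labelled VAD WT, the libraries labelled VAD Stra6-/- were lower for the same 7 genes, with log2 fold changes of −6.17 ± 0.24 for Col17a1, −3.82 ± 0.20 for Lama3, −3.41 ± 0.16 for Lamb3, −3.08 ± 0.11 for Itgb4, −1.96 ± 0.09 for Itga6, −1.92 ± 0.06 for Plec and −1.60 ± 0.08 for Dst. The limma adjusted p was between 8.32e-16 for Plec and 6.97e-13 for Lama3, the groups did not overlap, and the share of all genes called lower was 29.6% (19% with non-overlapping groups). The comparison uses the same labelled libraries as the one before. Without VAD WT replicates 2 and 4, all 7 remained lower, against 32.5% of all genes, and the values ran from −6.73 for Col17a1 to −1.74 for Dst. The difference between the diet effects of the genotypes as labelled passed for all 7 genes, with interactions from −7.57 ± 0.35 for Col17a1 (limma adjusted p = 2.57e-13) to −2.26 ± 0.12 for Dst (limma adjusted p = 1.85e-12), while 24.8% of all genes had a lower interaction. Without VAD WT replicates 2 and 4 the interactions were −8.14 for Col17a1 to −2.40 for Dst, all 7 passed, and the share of all genes was 29%.

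**Figure D2:**
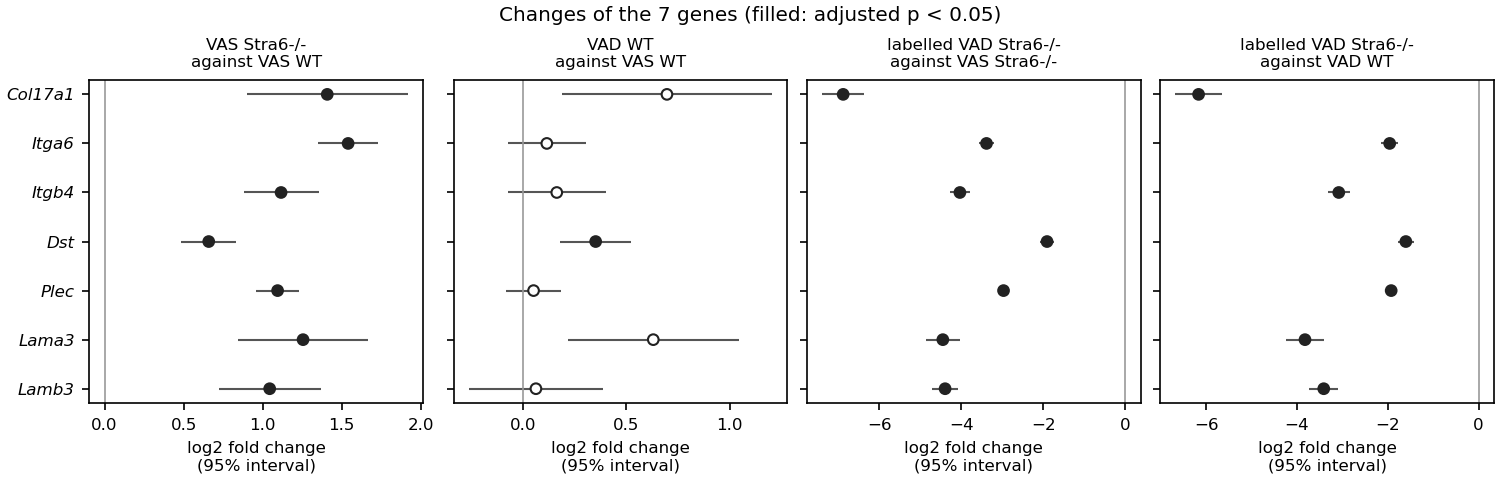
Log2 fold change of the 7 genes with 95% intervals in 4 comparisons (limma on log2 of the normalized read count plus 1, each panel with its own horizontal scale). Filled points passed an adjusted p of 0.05: Dst alone in the libraries labelled VAD WT against VAS WT, and all 7 in each other panel.

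Other cell types differed in the libraries labelled VAD Stra6-/- as well. All 14 surface epithelium markers fell against VAS Stra6-/-, with a median log2 fold change of −4.55, and their summed value was 33648 to 43895, compared with 982037 to 1020535. Of the RPE markers 11 of 12 rose (median 1.80), as did all 8 fibroblast markers (median 1.86) and all 8 macrophage markers (median 1.31). Krt12 had a mean of 2851 ± 512 (SD, n = 5) there and Krt5 of 7236 ± 754, and no marker of any list was at 0 in all libraries of a group. Set against the mean log2 value of the epithelium markers within each library, Col17a1 was lower than in VAS WT by 1.19 (difference −1.19), whereas the other 6 were higher, by 0.93 for Lamb3, 1.08 for Lama3, 1.36 for Itgb4, 2.40 for Plec, 2.43 for Itga6 and 3.03 for Dst. In VAS Stra6-/- the same differences to VAS WT were 1.10 for Col17a1, 0.74 for Lamb3, 0.95 for Lama3 and 0.81 for Itgb4. They were 0.79 for Plec, 1.23 for Itga6 and 0.35 for Dst. On this scale Lama3 and Lamb3 overlapped between VAS Stra6-/- and the libraries labelled VAD Stra6-/-. The part of the tissue makeup in the members' fall was not tested.

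Genes whose proteins work as partners did not always move equally. The test was an exact two-sided permutation test on the difference of 2 members' log2 values within each library, a quantity that the scaling of the library hardly touches, with 16 tests adjusted together and 0.00794 as the smallest raw p that 5 against 5 libraries allow. Itga6 stood 0.36 ± 0.09 (SD, n = 5) above Itgb4 in VAS WT, 0.31 ± 0.12 in the libraries labelled VAD WT, 0.79 ± 0.04 in VAS Stra6-/- and 1.44 ± 0.37 in the libraries labelled VAD Stra6-/-. The α6 subunit gene thus gained on β4 by 0.42 in VAS Stra6-/- against VAS WT (exact permutation adjusted p = 0.0159), and by 1.12 in the libraries labelled VAD Stra6-/- against the libraries labelled VAD WT (exact permutation adjusted p = 0.0159), or 1.18 without VAD WT replicates 2 and 4 (exact permutation adjusted p = 0.0317). The gain of 0.65 against VAS Stra6-/- passed narrowly (exact permutation adjusted p = 0.0462), and not without VAS Stra6-/- replicate 4 or 5, or without replicate 3 or 4 of the libraries labelled VAD Stra6-/-, where the adjusted p was 0.0508 to 0.0577. The libraries labelled VAD WT differed from VAS WT by −0.05 (exact permutation adjusted p = 0.542), and by −0.10 without VAD WT replicates 2 and 4 (exact permutation adjusted p = 0.229).

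Col17a1 gained 0.29 on Itgb4 in VAS Stra6-/- against VAS WT (exact permutation adjusted p = 0.0159). In the libraries labelled VAD Stra6-/- it lost 2.84 against VAS Stra6-/- (difference −2.84) and 3.09 against the libraries labelled VAD WT (difference −3.09), both with an exact permutation adjusted p of 0.0159. Without VAD WT replicates 2 and 4 the latter was −3.47 (exact permutation adjusted p = 0.0317). The values of both genes were nearly equal in the libraries labelled VAD Stra6-/- (−0.24 ± 0.55), while in VAS Stra6-/- Col17a1 was above Itgb4 by 2.60 ± 0.01. In the libraries labelled VAD WT the difference to VAS WT was 0.53 (exact permutation adjusted p = 0.181), and 0.92 without replicates 2 and 4 (exact permutation adjusted p = 0.0317).

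The plakin genes Plec and Dst, each with its transcripts pooled, also changed balance. Plec minus Dst was 0.38 ± 0.08 in VAS WT, 0.82 ± 0.08 in VAS Stra6-/-, 0.08 ± 0.18 in the libraries labelled VAD WT and −0.24 ± 0.09 in the libraries labelled VAD Stra6-/-. The shift was 0.44 with loss of Stra6 on the sufficient diet, −0.30 with the deficient diet in WT as labelled and −1.06 between the diets in the mutant as labelled, each with an exact permutation adjusted p of 0.0159. Without VAD WT replicates 2 and 4 the second shift was −0.42 (exact permutation adjusted p = 0.0317). The shift of −0.32 against the libraries labelled VAD WT (exact permutation adjusted p = 0.0381) did not pass without VAD WT replicates 2 and 4 (exact permutation adjusted p = 0.0714) or without any 1 of replicates 2 to 5 of the libraries labelled VAD Stra6-/-. Lama3 and Lamb3, chains of 1 trimer, differed in balance in a single comparison. Lama3 gained 0.57 on Lamb3 in the libraries labelled VAD WT against VAS WT (exact permutation adjusted p = 0.0282), and 0.66 with the 3 libraries left without replicates 2 and 4 (exact permutation adjusted p = 0.0520, no longer passing). The differences of 0.21, −0.05 and −0.41 in the other comparisons had exact permutation adjusted p values of 0.181, 0.762 and 0.0635. For the first of these the value was 0.32 without VAS WT replicate 4 and passed (exact permutation adjusted p = 0.0282). The last passed without VAD WT replicate 2 (−0.47, exact permutation adjusted p = 0.0488) and without replicate 2 of the libraries labelled VAD Stra6-/- (−0.55, exact permutation adjusted p = 0.0141), but not without VAD WT replicates 2 and 4 together (−0.50, exact permutation adjusted p = 0.132).

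**Figure D3:**
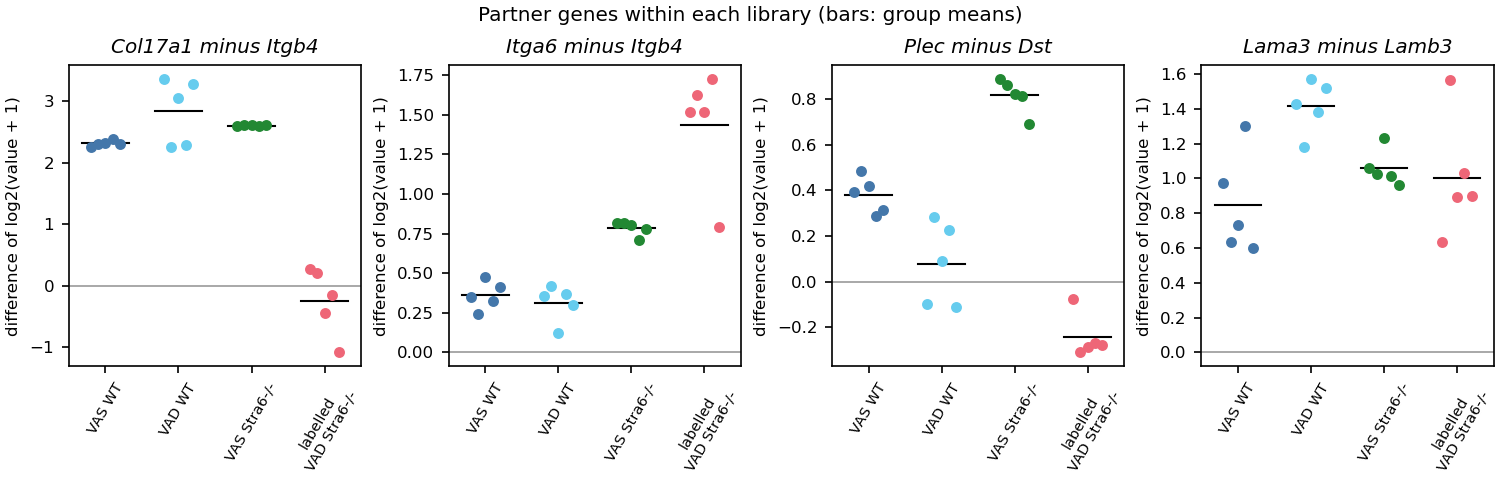
Difference of log2(normalized read count + 1) between partner genes within each library, by group, with group means as bars. Col17a1 minus Itgb4 falls from 2.60 in VAS Stra6-/- to −0.24 in the libraries labelled VAD Stra6-/-, Itga6 minus Itgb4 rises from 0.79 to 1.44, Plec minus Dst falls from 0.82 to −0.24, and Lama3 minus Lamb3 stays near 1 (1.06 and 1.00).

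Levels of different genes can be compared only per length, and the normalized read count per kilobase of the longest transcript was used for that. In VAS WT, Col17a1 was highest at 1591 ± 148 (SD, n = 5), followed by Itga6 at 533, Plec at 357, Itgb4 at 288, Dst at 182, Lamb3 at 120 and Lama3 at 99.8 per kilobase. All neighbours in that order were separated in their ranges except Lamb3 and Lama3. VAS Stra6-/- kept the order, with Col17a1 at 4206 and Lama3 at 237. In the libraries labelled VAD Stra6-/- Itga6 led with 149, before Plec with 97.1 and Dst with 76.5, and Col17a1, at 36.5 ± 8.74, overlapped Itgb4 at 38.3. Lamb3 (11.8) and Lama3 (11.2) overlapped there as well. The places of Itga6 and Dst, among others, depend on the length used. Per kilobase of the union of its exons Itga6 stood at 254 in VAS WT, just below Itgb4 at 255 and below Plec at 305. On that scale Dst was lowest of all in VAS Stra6-/-, at 162 against 181 for Lamb3, and stood below Lama3 in the libraries labelled VAD WT (132 against 156).

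Col7a1, which forms the anchoring fibrils under the basement membrane, showed −0.16 (limma adjusted p = 0.608) in VAS Stra6-/- against VAS WT, and fell by 2.81 in the libraries labelled VAD Stra6-/- against VAS Stra6-/- (limma adjusted p = 7.98e-11).

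Cd151, a tetraspanin that binds the α6 integrins, went the other way. Its mean was 2662 ± 105 (SD, n = 5) in VAS WT, 2297 ± 88.7 in the libraries labelled VAD WT, 2908 ± 139 in VAS Stra6-/- and 3300 ± 152 in the libraries labelled VAD Stra6-/-, the highest of the 4 groups. The rise there was 0.18 ± 0.05 against VAS Stra6-/- (limma adjusted p = 0.00726) and 0.52 ± 0.05 against the libraries labelled VAD WT (limma adjusted p = 4.50e-08), or 0.51 without VAD WT replicates 2 and 4 (limma adjusted p = 1.26e-08). Itgb1, the integrin β1 chain, which takes α6 in cells without β4, rose as well, by 0.59 ± 0.08 against VAS Stra6-/- (limma adjusted p = 2.20e-06). Of the keratins that plectin and BP230 hold in basal cells, Krt14 rose by 0.62 ± 0.09 in VAS Stra6-/- against VAS WT (limma adjusted p = 2.79e-05) and was lower in the libraries labelled VAD WT by 0.52 (difference −0.52, limma adjusted p = 0.000715, and −0.39 without VAD WT replicates 2 and 4, limma adjusted p = 0.000162). Krt5 did not pass in either, at 0.47 (limma adjusted p = 0.205) and 0.15 (limma adjusted p = 0.790). Without VAD WT replicates 2 and 4 both passed, at 0.47 (limma adjusted p = 2.75e-06) and 0.74 (limma adjusted p = 4.03e-08). In the libraries labelled VAD Stra6-/- against VAS Stra6-/- Krt5 fell by 5.16 and Krt14 by 3.53 on the log2 scale (limma adjusted p = 3.54e-13 and 9.53e-18). The largest fall on this list of 11 partners was that of Fermt1, kindlin-1, which activates integrins in keratinocytes, at −6.16 ± 0.35 (limma adjusted p = 2.87e-12). Counted over the 11 partners, 5 rose and 2 fell (Krt15 and Bmp1) in VAS Stra6-/- against VAS WT (7 and 2 without VAD WT replicates 2 and 4), 1 rose and 3 fell in the libraries labelled VAD WT against VAS WT (5 and 3 without replicates 2 and 4, where 17.6% of all genes were called higher and 20.3% lower), and 2 rose and 8 fell in the libraries labelled VAD Stra6-/- against VAS Stra6-/-. Of all genes, 15.9% were called higher and 10.8% lower in the first of these comparisons, 3.29% and 5.5% in the second, and 24.4% and 28.8% in the last. The keratins Krt5, Krt14 and Krt15 are on the epithelium marker list too.

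Relatives of the members outside the hemidesmosome were counted by family. As background, 15.9% of all genes were called higher in VAS Stra6-/- against VAS WT. In the libraries labelled VAD Stra6-/- against VAS Stra6-/-, 24.4% were called higher and 28.8% lower. There, the other laminin, integrin and basement membrane lists each held genes called in both directions. The other plakins resembled Plec and Dst in direction. Of 5 of them 4 rose in VAS Stra6-/- against VAS WT, led by desmoplakin (Dsp, 1.39 ± 0.11, limma adjusted p = 1.66e-08), and all 5 fell in the libraries labelled VAD Stra6-/- against VAS Stra6-/-, led by periplakin (Ppl, −5.56 ± 0.17, limma adjusted p = 1.40e-16). Among 8 other laminin chains, 5 rose and 2 fell in that comparison. Those that fell were Lama5 (−2.40 ± 0.13, limma adjusted p = 9.03e-13) and Lama1 (−1.21 ± 0.35, limma adjusted p = 0.00610), and Lama2 and Lama4, chains of muscle and vessel laminins, were higher by 0.86 and 0.85 (limma adjusted p = 0.000447 and 7.25e-06). Among 13 other integrin subunits, 8 rose, with Itgb8 (3.61 ± 0.82, limma adjusted p = 0.000818) and its partner Itgav (1.65 ± 0.08, limma adjusted p = 1.97e-13) in front, and Itga2 and Itgb6 fell (limma adjusted p = 0.000476 and 0.000765). Of 12 other basement membrane genes 4 rose and 2 fell, with Nid2 at 1.82 ± 0.09 and Agrn at −1.49 ± 0.11 (limma adjusted p = 3.44e-13 and 1.88e-10).

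**Figure D4:**
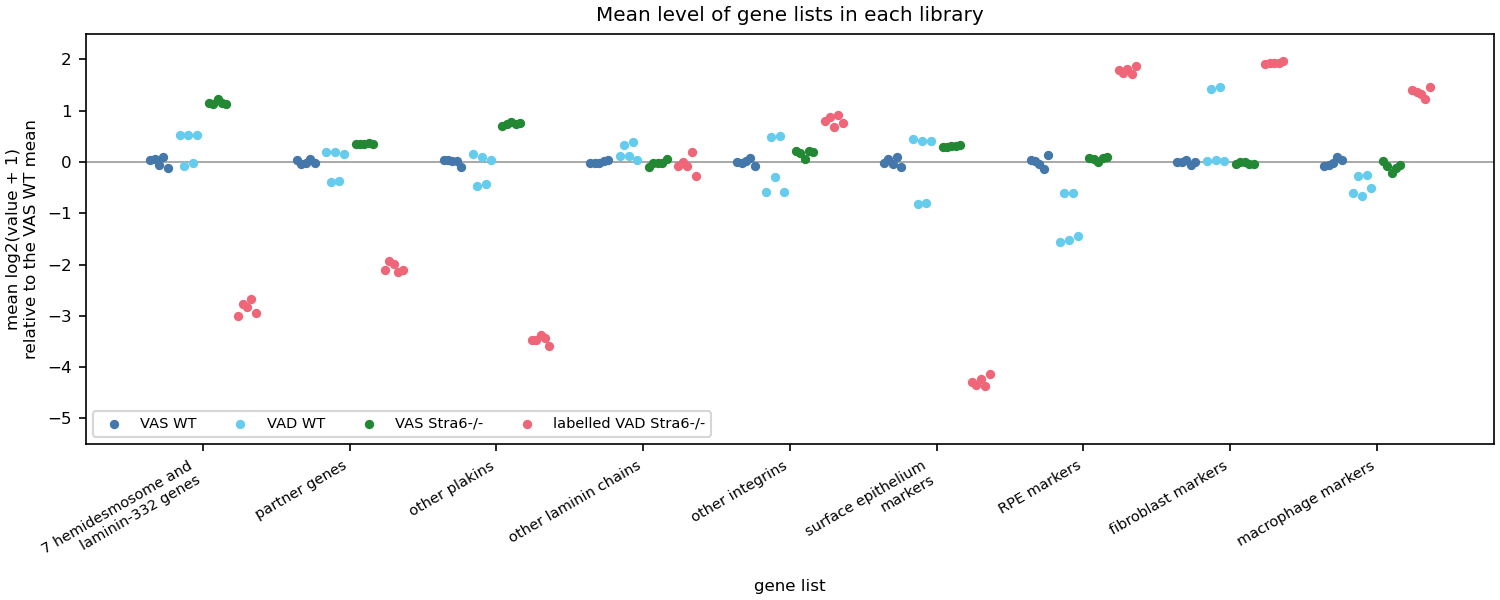
Mean log2(normalized read count + 1) of gene lists in each library, relative to the mean of the VAS WT libraries, colored by group. The 7 genes, their partners, the other plakins and the surface epithelium markers lie lowest in the libraries labelled VAD Stra6-/-, where RPE, fibroblast and macrophage markers lie highest, and the libraries labelled VAD WT are split between replicates 2 and 4 and the rest.

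The genes most like each member were found by the root-mean-square difference of centred log2 profiles over the 20 libraries, among 14085 genes with a mean of at least 50 in some group. This is a description of shared differences between 4 groups that also differ in tissue makeup. For Col17a1 they were Aqp5 (0.32), Fam83a (0.35) and Krt12 (0.35), of which Aqp5 is a water channel and Krt12 a keratin of the corneal epithelium. For Itgb4 they were Pcdh1 (0.18), Sfn (0.19) and Jup (0.20), and Pcdh1 and Sfn were also closest to Lamb3 (0.21 and 0.24), before Dsp (0.24). Jup and Dsp, plakoglobin and desmoplakin, belong to desmosomes. Itga6 was close to Mast4 (0.15) and Fut4 (0.19), and Plec to Camk1d (0.14) and Mxd1 (0.18). Dst was closest to Mknk2 (0.10), Tshz2 (0.13) and Icosl (0.14), and Lama3 to Phldb3 (0.34), Celsr1 (0.35) and Pcdh1 (0.35). Among the members themselves, Itga6 and Plec were nearest (0.21), then Itgb4 and Lamb3 (0.28) and Lama3 and Lamb3 (0.30), and Col17a1 and Dst were farthest apart (2.03).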

How the data were processed

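RNA-seq of 20 RPE-choroid samples was analysed, 5 in each of 4 groups named by the labels. The authors aligned reads to GRCm38/mm10 with STAR 2.5.3a and counted genes with RSEM 1.2.30. Each deposited value, a signal, equals a gene's count over the sample's DESeq2 (1.32.0) size factor, applied by the authors. In all 20 libraries the values were whole multiples of the value of 1 read (tolerance 0.001). Reads were taken as recovered in 19 of them. Replicate 1 of the libraries labelled VAD Stra6-/- was left out of count tests because its step lay near 1. No row lacked a gene name. No library pair agreed within sampling noise.

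The 18807 genes with a total of at least 5 reads were fitted with limma 3.58.1 (R 4.3.3) on log2(value + 1), with group means, a trend and Benjamini-Hochberg adjustment over all of them, and called at an adjusted p under 0.05. Fold changes are on that scale, which understates low genes. Alternatives were pseudocounts of 0.5 and 4, TMM, other filters, only the groups compared, no trend, a replicate block, edgeR 4.0.16, DESeq2 1.42.0 and leaving out libraries. The fits were tested on simulated data.

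The members and lists were chosen with earlier results of these data known. Named were the members, Stra6, Cd151, Col7a1, Krt5, Krt14, markers, up to 2 called genes per list and direction with the largest change, and 3 genes most like each member. A few genes under this rule are not reported here. Positions are from GENCODE vM21, with counts not known to be stranded.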

Additional observations from a re-analysis of the deposited data

Results flagged for a closer look

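The effect of the deficient diet differed between the genotypes as labelled for all 7 members and for all 11 of their partners (2 with a higher and 9 with a lower value), by limma's interaction term with adjustment over all genes. Of the 18807 genes tested, 3663 were called with a higher and 4656 with a lower interaction. The interaction on the log2 scale was −7.57 for Col17a1, −3.50 for Itga6, −4.20 for Itgb4, −2.26 for Dst, −3.02 for Plec, −5.08 for Lama3 and −4.46 for Lamb3. For 4 of the partners it was −3.23 for Col7a1, −5.31 for Krt5, −3.01 for Krt14 and 0.40 for Cd151, and among these and the members the adjusted p was highest for Cd151 (0.000237). Itgb1 had the other positive value, 0.48 (limma adjusted p = 0.00153). The term contains both groups on the deficient diet, in which Stra6 does not bear out the labels.

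Within groups, 1 library stood far from the other 4 for 2 genes, both times the highest of VAS Stra6-/- (replicate 3), with Dst at 7041 and Lama3 at 2854. The limit was Dixon's 95% value of 0.71 for 5 samples. It was applied to 11 genes in 4 groups, 44 sets, and chance flags about 1 in 20 of them. Leaving that library out changed no call of Dst or Lama3 against VAS WT.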

How the results depend on the processing

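In VAS Stra6-/- against VAS WT, in both comparisons of the libraries labelled VAD Stra6-/- and in the interaction, all 7 members kept their direction and their call under every alternative. No called value changed sign, but 3 values near 0 that passed no test did so when 1 library was left out. Lamb3 in the libraries labelled VAD WT against VAS WT ran from −0.0092 (without VAD WT replicate 1 or 5) to 0.16, Itga6 minus Itgb4 in the same comparison from −0.078 to 0.00011 (without VAD WT replicate 3), and Lama3 minus Lamb3 between the diets in the mutant as labelled from −0.19 to 0.037 (without its deficient replicate 1). The diet comparison in WT depended on the settings. Against 1 member called (Dst), 2 were called with a pseudocount of 4 or with a mean value of at least 10, 3 by edgeR with TMM or with DESeq2 size factors and by DESeq2, 0 with only the groups compared (2, Dst and Lama3, at an unadjusted p under 0.05 by limma), and 5 without VAD WT replicates 2 and 4. Leaving out 1 library gave 1 to 3, with 3 without VAD WT replicate 2 or 4. Lama3 passed without VAS WT replicate 4 (adjusted p = 0.0479) and without replicate 1 or 4 of the libraries labelled VAD Stra6-/- (adjusted p = 0.0321 and 0.0357), which enter only through the shared spread. Over all alternatives its adjusted p was 0.000222 to 0.166.

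Over all genes, calls in the libraries labelled VAD WT against VAS WT went from 1652 to 639 with only the groups compared and to 7124 without VAD WT replicates 2 and 4, and to 1260 to 2651 with 1 library left out. Those in VAS Stra6-/- against VAS WT went from 5010 to 8208 and 7524. With 1 library left out, 3 to 4, 2 to 3, 2 to 3 and 2 to 4 of the partner pairs passed in the 4 comparisons, in the order given in the text. Replicate numbers did not pair the samples (0 of 30 same-numbered pairs correlated over 0.1), and a replicate block left 7, 1, 7 and 7 members called. TMM moved the median of all genes by less than 0.1. The causes of these shifts were not tested. Depth limits the laminin chains most, since Lamb3 was as low as 45.1 in the libraries labelled VAD Stra6-/-.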

Other observations

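Col4a3 and Col4a4, collagen IV chains of the mature basement membrane, followed another course than the hemidesmosome genes between the diets in WT as labelled. In the libraries labelled VAD WT against VAS WT, Col4a3 fell by 1.77 ± 0.18 and Col4a4 by 1.12 ± 0.15 on the log2 scale (limma adjusted p = 1.05e-06 and 2.67e-05), with no overlap between the groups, and 5 of 12 basement membrane genes were lower and 1, Agrn, was higher (0.36 ± 0.11, adjusted p = 0.0472). Of all genes, 5.5% were called lower and 3.29% higher. Without VAD WT replicates 2 and 4 the falls were 1.36 and 0.82 (differences −1.36 and −0.82, limma adjusted p = 2.54e-09 and 1.44e-06), 7 of 12 were lower, against 20.3% of all genes, and Agrn was higher by 0.51 (limma adjusted p = 0.000424). In the libraries labelled VAD Stra6-/-, Col4a3 was higher than in VAS Stra6-/- by 0.55 ± 0.18 (limma adjusted p = 0.0146). RPE markers were likewise lower between the diets in WT as labelled (median log2 fold change −0.98) and higher in the mutant as labelled (median 1.80). Their part in these values was not tested. In VAS Stra6-/- against VAS WT, where all 7 hemidesmosome and laminin-332 genes rose, 4 of the 12 fell by limma, against 10.8% of all genes, with Col4a5 at −0.66 ± 0.16 and Nid2 at −0.55 ± 0.09 (limma adjusted p = 0.00324 and 0.000114).

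Other integrin genes were also mixed. Itga7, the laminin receptor of muscle, fell by 0.70 ± 0.12 in VAS Stra6-/- against VAS WT (limma adjusted p = 0.000198), while 8 of 10 skeletal muscle markers rose in the same comparison. The part of muscle in this value was not tested. Itga2, a collagen receptor, rose by 1.68 ± 0.41 in that comparison (limma adjusted p = 0.00432). In the libraries labelled VAD Stra6-/- against VAS Stra6-/- its difference was −1.92 ± 0.41 (limma adjusted p = 0.000476).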
